A study of Mus musculus with 4 samples.

Results

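The islet endothelial genes are 10 genes whose products mark the cells that line blood vessels, namely Pecam1, Cdh5, Kdr, Flt1, Tek, Tie1, Eng, Plvap, Esam and Vwf. They were taken as all probes that carry 1 of these names in the scanner files, which gave 10 of the 22328 genes named on the array, read by 15 of its 55681 probes in 25 of 59305 spots. The islets came from C57BL/6 mice aged 24 weeks, and their RNA was read on 4 Agilent arrays of 1 colour, with 1 array per group. The groups were transgenic males profiled 6 weeks after an E2 implant (male Tg E2), transgenic females (female Tg), transgenic males labelled diabetic (male Tg) and wild-type males (male WT). E2 is read here as estradiol. The labels used here name neither the transgene nor the cells that carry it, and do not say how many mice an array stands for. All islets were freed with collagenase, separated on a gradient and picked by hand, so vessels reached the array only as far as they stayed within the picked islets.

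Islets are among the most densely vascularised tissues, and beta cells are known to hold this capillary bed in place by secreting the vascular growth factor Vegfa. Endothelial cells receive it through the receptor tyrosine kinases encoded by Kdr and Flt1, while Tek and Tie1 encode the receptors of the angiopoietin system, which steadies mature vessels. Pecam1, Cdh5 and Esam encode adhesion proteins of endothelial cell contacts, Eng a co-receptor for bone morphogenetic proteins, Plvap the protein of the diaphragms that span endothelial pores, and Vwf the clotting protein that endothelial cells and megakaryocytes store.

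With a single array per group, each difference below is one between arrays, and no p-value can be given. Levels are log2 processed intensity minus the 75th percentile of the same array, so a level of 0 lies at that percentile, and levels of different probes are not set against each other. Only probes that the scanner software called well above background on each array of a pair were compared, and the brightest probe of all 10 genes was so on all 4 arrays. The scanner software's error model gave a difference between 2 arrays a standard error (SE) of 0.20 to 0.40 log2 over the measured probes. That error is technical and holds no variation between mice. In bulk islets fewer endothelial cells and less RNA per endothelial cell cannot be told apart.

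Kdr, Flt1, Plvap and Vwf have more than 1 probe, and for Kdr the answer turned on which one was read. The first 30 bases of each of these 60-base probes are shown 5′ to 3′ as the scanner files give them, so that the results can be tied to the stretch of transcript that each reads. Nothing in them is set in capitals, since no motif is claimed. Probes are numbered by brightness within a gene.
Kdr probe 1: tgtttaaatggaagtggtcctgtcccggct
Kdr probe 2: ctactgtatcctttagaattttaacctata
Flt1 probe 1: aagtaaagaaaagctatcgggattctctgg
Flt1 probe 2: ggagggtactgccgttcctgtgtggtattt
Flt1 probe 3: tccctatcccaactacacattcaatcttct
Plvap probe 1: tttccagcctccctcttaaaggccactagg
Plvap probe 2: attcaagaaaaggatcctggagtctcagcg
Vwf probe 1: caagtgaggcctgtgcagctacagcggatt
Vwf probe 2: tagttaaacagaacaacagtgaagggcgga

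On mouse build mm9 the Kdr probes lie at chr5:76330395-76330454 and chr5:76329309-76329368 on the minus strand, 1086 bases apart, with probe 2 nearer the 3′ end of the gene. The Flt1 probes lie on the minus strand at chr5:148373791-148373850, chr5:148446872-148446931 and chr5:148465976-148466035, so that probe 1 is nearest the 3′ end. Flt1 is known to be made both as a membrane receptor and as a shorter secreted form, and whether these probes tell the forms apart was not tested. Plvap is read at chr8:74021877-74021936 and chr8:74030739-74030798 on the minus strand. Vwf is read at chr6:125636551-125636610 and, 94.4 kb away, at chr6:125542106-125542165 on the plus strand. The genes with a single probe are Pecam1 (chr11:106540864-106540923), Cdh5 (chr8:106668159-106668218), Tek (chr4:94540624-94540683), Tie1 (chr4:118144132-118144191), Eng (chr2:32537268-32537327) and Esam (chr9:37345795-37345854). Exons and untranslated regions were not assigned.

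The adhesion genes were higher on the male Tg array than on the male WT array, a comparison in which the transgene and the diabetic label differ together. Cdh5, which encodes the cadherin of endothelial junctions, read 0.72 on the male Tg E2 array, 0.08 on the female Tg array, 0.76 on the male Tg array and -0.34 on the male WT array. Pecam1 read -0.94, -1.05, -0.58 and -1.50 in the same order, each the mean of 2 spots. Esam read 1.14, 1.25, 1.29 and 0.56. For all 3 genes male Tg was the highest array and male WT the lowest. The male Tg E2 and male Tg levels of Cdh5 lay within 1 SE of each other, and so did the 3 transgenic levels of Esam from each array to the next.

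Against male WT, male Tg was 2.14-fold higher for Cdh5 (SE 0.21 log2), 1.90-fold for Pecam1 (0.92) and 1.65-fold for Esam (0.72). Cdh5 was the only one of the 3 past 2-fold, and it fell short of it after normexp background modelling (0.85). Vwf was 2.71-fold higher by probe 1 and 3.19-fold by probe 2. Over the 10 genes, 2 were at least 2-fold higher on the male Tg array, Cdh5 and Vwf, and 0 at least 2-fold lower. Of all 14386 genes measured in this comparison 15.6% passed 2-fold upwards and 8.68% downwards, so the count of endothelial genes past 2-fold was near the background. Among called genes over the whole array, 64.3% were higher in male Tg, and 77.9% after the median gene was set to 0, a shift of 0.21 log2. The median difference of the 10 genes was 0.50 log2 against -0.21 log2 for all measured genes, and 8 of the 10 were above 0. These figures use the brightest probe of each gene. Kdr is thus counted above 0 at 0.62, although its other probe gave -0.62.

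**Figure D1:**
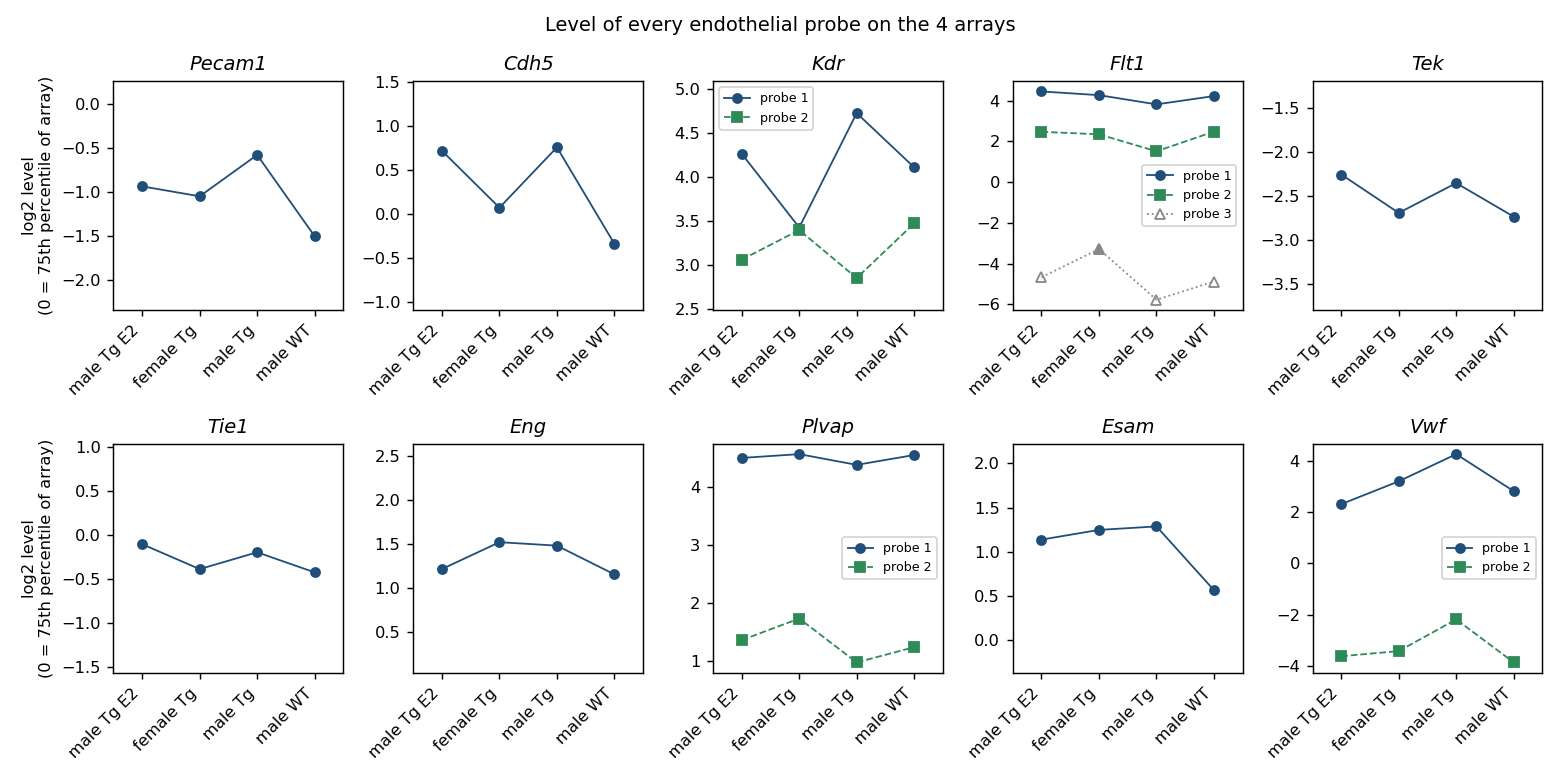
Level of every endothelial probe on the 4 arrays, as log2 processed intensity minus the array's 75th percentile, with 1 panel per gene and its own axis. Filled symbols are well above background and open symbols are not, and lines only join the values of a probe. Cdh5, Pecam1 and Esam are lowest on the male WT array, while both fully measured Flt1 probes are lowest on the male Tg array.

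Flt1, the receptor that binds Vegfa tightly and limits its action, was lowest on the male Tg array by both of its well-measured probes. Probe 1 read 4.46 on male Tg E2, 4.27 on female Tg, 3.82 on male Tg and 4.23 on male WT. Probe 2 read 2.47, 2.35, 1.52 and 2.48. The other 3 arrays lay within 1 SE of the next one in each case, so the male Tg array alone stood below them. Male Tg over male WT was -0.41 log2 by probe 1 and -0.97 by probe 2, a 1.96-fold lower level. Male Tg E2 over male Tg was 0.63 and 0.96, and female Tg over male Tg was 0.45 and 0.84. Probe 3 was well above background on a single array, that of female Tg, and read at least 1.19-fold higher there than on male Tg. Its level of -3.29 on female Tg was near the lowest level called well above background on that array, -3.44. An "at least" value uses the detection floor of the array on which the probe was dim, and carries no error estimate.

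Kdr, the main signalling receptor for Vegfa, gave opposite answers by its 2 probes. Probe 1, which has 1 spot, read 4.26 on male Tg E2, 3.43 on female Tg, 4.73 on male Tg and 4.11 on male WT. Probe 2, which is spotted 10 times on every array, averaged 3.06, 3.40, 2.85 and 3.47, with a standard deviation over spots of 0.04 to 0.05. The 10 spots of probe 2 ran from 2.75 to 2.91 on male Tg and from 3.38 to 3.57 on male WT, and did not overlap. They also did not overlap between male Tg E2 (2.94 to 3.12) and male Tg, nor between female Tg (3.33 to 3.45) and male Tg. The spots are repeats on a single array and hold no variation between mice. How often other probes with 10 spots separate in this way was not tested. A gap of 0.21 separated the spots of male Tg E2 and male Tg, where all measured genes had a median absolute difference of 0.33. Separation of spots is therefore not read as a result about Kdr. Probe 1 put male Tg 0.62 log2 above male WT, whereas probe 2 put it at -0.62. Female Tg over male Tg was -1.30 by probe 1 and 0.54 by probe 2, and male Tg E2 over male Tg -0.46 and 0.21 (SE 0.20 for each). No direction is therefore given for Kdr in any of the comparisons.

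**Figure D2:**
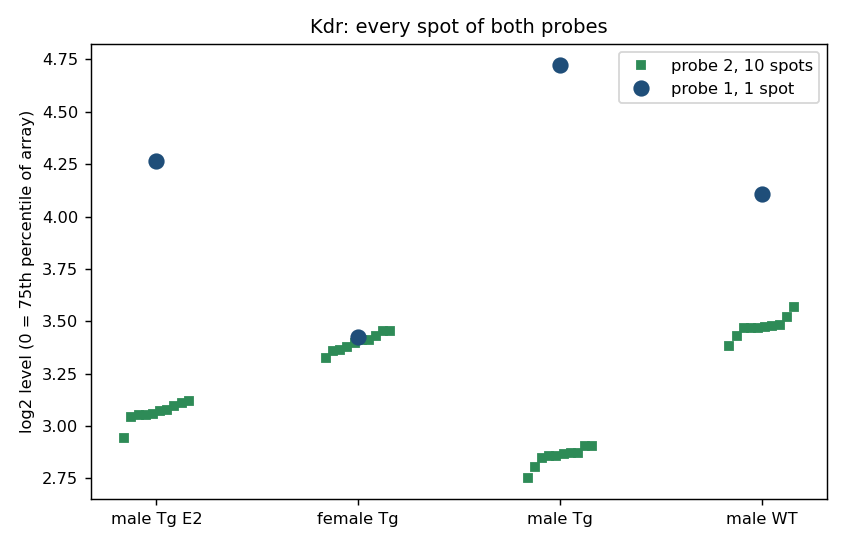
Every spot of the 2 Kdr probes on each array, as log2 level over the array's 75th percentile, with the 10 spots of probe 2 drawn side by side by level. Probe 2 is lowest on male Tg (2.75 to 2.91), where probe 1 is highest (4.73).

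The angiopoietin receptors and Eng varied little. Tek, the receptor itself, read -2.26 on male Tg E2, -2.69 on female Tg, -2.35 on male Tg and -2.73 on male WT, and was dim on every array. Male Tg over male WT was 0.38, male Tg E2 over male Tg 0.10 and female Tg over male Tg -0.34, with an SE of 0.27 to 0.31. Its partner Tie1 read -0.10, -0.39, -0.20 and -0.42, and each level lay within 1 SE of the next. Eng read 1.22, 1.52, 1.48 and 1.16, which set female Tg and male Tg apart from male Tg E2 and male WT by a gap of 0.27 (SE 0.20). None of the 3 genes reached 2-fold in any comparison.

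Plvap was among the steadiest of the genes by its brightest probe. Probe 1 read 4.49 on male Tg E2, 4.56 on female Tg, 4.37 on male Tg and 4.54 on male WT, with each level within 1 SE of the next. Probe 2 read 1.35, 1.72, 0.97 and 1.23. The male Tg array was lowest by both probes, and female Tg over male Tg was 0.18 by probe 1 and 0.76 by probe 2. Male Tg over male WT was -0.17 and -0.26, and the value of probe 1 changed sign in 2 of 9 alternative settings.

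Vwf had the widest range over the 4 arrays of the 10 genes. Probe 1 read 2.31 on male Tg E2, 3.20 on female Tg, 4.25 on male Tg and 2.81 on male WT. Probe 2, which is dim, read -3.61, -3.41, -2.18 and -3.85. Both probes were highest on male Tg, and by probe 1 every array differed from the next by more than 1 SE. Male Tg E2 over male Tg was -1.95 log2 (SE 0.20), a 3.85-fold lower level, and 2.70-fold lower by probe 2. Female Tg over male Tg was -1.06 and -1.23, and the value of probe 1 ran from -1.15 to -0.96 across the alternative settings, on both sides of 2-fold. Male Tg E2 over male WT was -0.51 by probe 1 and 0.24 by probe 2 (SE 0.40), so no direction is given there.

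Platelet genes, like Vwf, were mostly highest on the male Tg array. Of 11 such genes, 6 were at least 2-fold higher on male Tg than on male WT and 0 lower (median 1.21 log2), and all 10 measured in male Tg E2 over male Tg were at least 2-fold lower (median -3.32). In female Tg over male Tg 5 of 11 were at least 2-fold lower and 0 higher (median -0.99). For male Tg E2 against male WT the platelet median was -2.01, with 9 of 10 at least 2-fold lower, where the Vwf probes gave -0.51 and 0.24. Over all genes 15.6% were at least 2-fold higher in male Tg over male WT. At least 2-fold lower were 8.01% in male Tg E2 over male Tg, 8.57% in female Tg over male Tg and 2.64% in male Tg E2 over male WT. The summed level of the list, in units of each array's 75th percentile, was 12.6 on male Tg E2, 66.1 on female Tg, 127 on male Tg and 54.4 on male WT, and only Gp6 was not well above background, on male Tg E2. Ppbp, which encodes a platelet chemokine, read 0.95, 3.94, 4.65 and 3.67, and Itga2b, which encodes a fibrinogen receptor chain, -2.54, 0.36, 0.48 and -1.02. Summed red cell genes stood at 51.5 on male Tg E2, 157 on female Tg, 537 on male Tg and 113 on male WT. The part of platelet or red cell RNA in the Vwf values was not tested. Pecam1, which platelets and leukocytes also express, was at -0.36 in male Tg E2 over male Tg.

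**Figure D3:**
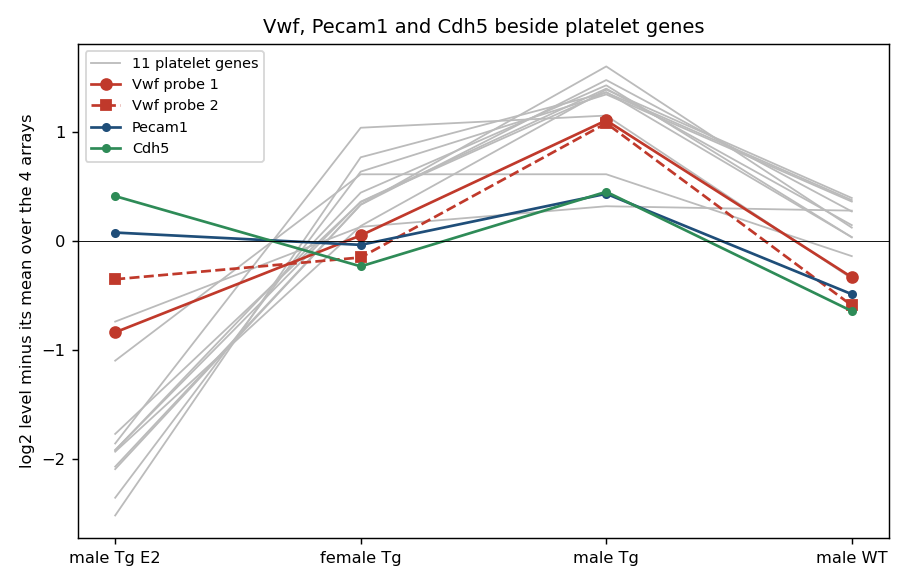
Log2 level of each gene minus its own mean over the 4 arrays, for both Vwf probes (red), 11 platelet genes (grey), Pecam1 (blue) and Cdh5 (green). Vwf probe 1 and all 11 platelet genes are lowest on male Tg E2, while Cdh5 is 0.72 on male Tg E2 and 0.76 on male Tg before centring.

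In male Tg E2 over male Tg, the comparison of transgenic males with and without the implant, the implant and the diabetic label differ together. Here 1 of the 10 genes was at least 2-fold lower, Vwf, and 0 higher. Over all 14618 measured genes 8.01% were at least 2-fold lower and 2.54% higher. By their brightest probes the other 9 genes lay between -0.46 and 0.63 log2, and 5 of the 10 differed by less than 1 SE. The -0.46 was that of Kdr, which was at 0.21 by its other probe. The median was -0.09, against 0.12 for all genes. Cdh5 differed by -0.04 and Esam by -0.15, whereas Flt1 was the highest of the 10.

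Male Tg E2 set against male WT shares an array with each of the preceding comparisons, so its values are given beside theirs and not as a separate line of evidence. By their brightest probes the 10 genes had a median of 0.27 log2, against -0.09 for all genes, with 8 above 0. Of the 10, 3 differed by less than 1 SE. All 4 genes with a further measured probe had the opposite sign by it. Among them Kdr was at 0.15 and -0.41, Flt1 at 0.23 and -0.01, and Plvap at -0.05 and 0.12. Cdh5 was 2.08-fold higher and alone past 2-fold, and Pecam1 and Esam were each at 0.57. The background here was 8.82% of 14587 genes past 2-fold upwards and 2.64% downwards.

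In female Tg over male Tg, in which sex and the diabetic label differ together, 2 of the 10 genes were at least 2-fold lower, Vwf and Kdr by its brightest probe, and 0 higher. With the other Kdr probe, Vwf alone was. Of 14209 genes 8.57% were at least 2-fold lower and 3.51% higher. The median was -0.26, against 0.10 for all genes. Cdh5 was at -0.68 and Pecam1 at -0.47, while Flt1 was at 0.45.

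**Figure D4:**
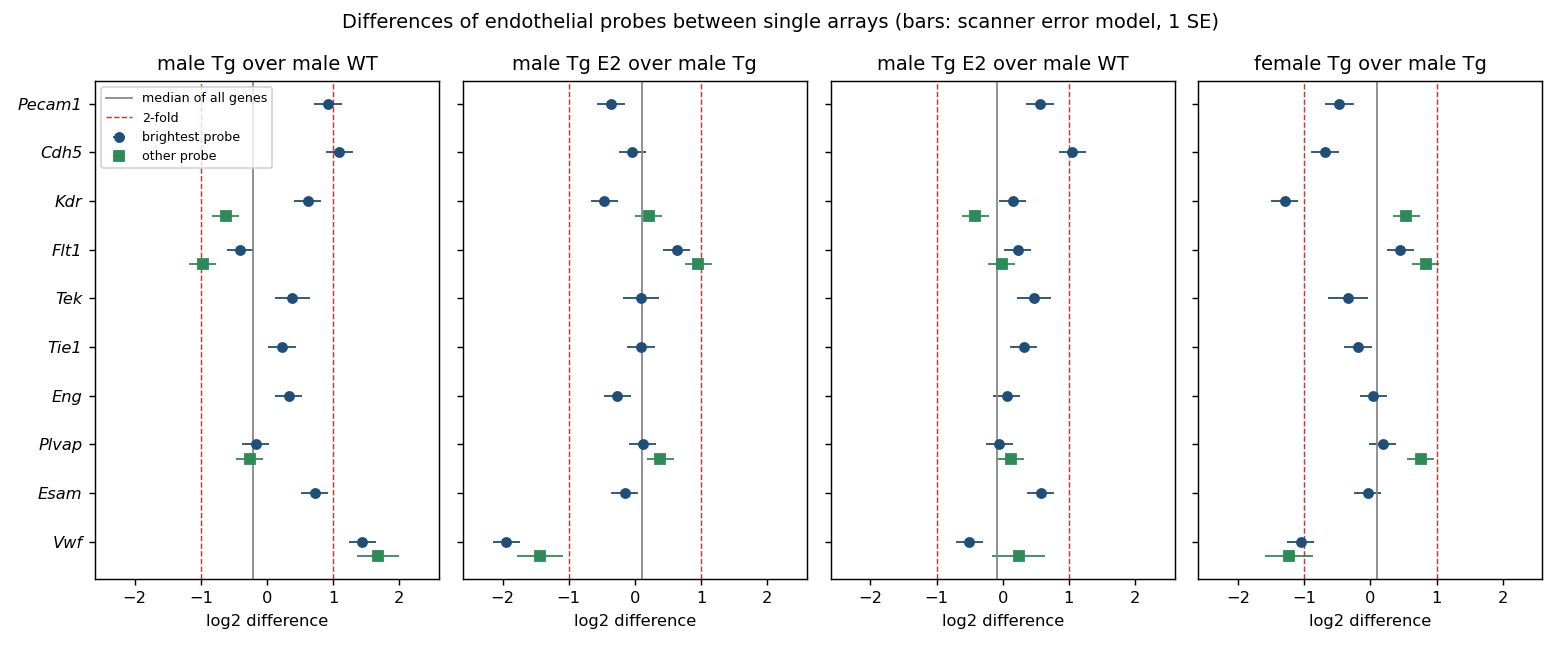
Log2 differences of the endothelial probes in the 4 comparisons, with the brightest probe of each gene as a circle and a further measured probe as a square. Bars are 1 SE of the scanner error model, the grey line is the median of all genes and dashed lines mark 2-fold. Vwf lies past 2-fold in 3 of the panels, and the Kdr probes lie on opposite sides of 0 in all of them.

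Other genes of endothelial identity leaned the same way as the adhesion genes in male Tg over male WT. Of 30 measured on both arrays (34 listed), 9 were at least 2-fold higher, 1 lower and 20 between, with a median of 0.61 log2. Cldn5, which seals endothelial tight junctions, read 0.36 on male Tg E2, -0.93 on female Tg, 1.20 on male Tg and -2.84 on male WT. Male Tg over male WT was thus 4.05 log2, and 2.97 at the lowest in the alternative settings. Cldn5 was dim on male WT. Sox17, a transcription factor of arterial endothelium, was at 2.11, Ets1 at 1.97, S1pr1, a receptor for sphingosine phosphate, at 1.82, and the surface protein gene Cd34 at 1.18, or 0.61 by its other probe. Ets1 and S1pr1 are also expressed by lymphocytes, of whose 10 markers 8 were at least 2-fold higher in the same comparison (median 3.29). Summed over the list these markers stood at 25.8 on male Tg E2, 66.4 on female Tg, 97.1 on male Tg and 16.5 on male WT, with Cd8a not well above background on male Tg E2, and their part was not tested. Robo4, a guidance receptor of endothelium, was at -0.18 and Emcn, a sialomucin of capillaries and veins, at -0.72.

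Between the transgenic arrays this list differed less. In male Tg E2 over male Tg 1 of 30 genes was at least 2-fold higher, Adgrl4 (1.06), and 3 lower, Ets1 (-1.29), Tal1 (-1.08) and Fli1 (-1.05). Over all genes 2.54% were higher and 8.01% lower, so these counts were near the background. The list median was -0.09. Adgrl4 fell short of 2-fold in 3 of 9 alternative settings, down to 0.56, and Ets1, Tal1 and Fli1 in 1 each. Ets1, Tal1 and Fli1 encode transcription factors that blood cell lineages also use. In the same comparison 7 of 9 lymphocyte markers were at least 2-fold lower (median -1.84), beside the platelet genes, and the part of blood cells was not tested. In female Tg over male Tg 2 were higher, Esm1 (1.40) and Emcn, which just reached 2-fold, and 2 lower, Cldn5 (-2.13) and Sox17 (-1.23), with a median of -0.19. The share over all genes there was 3.51% higher and 8.57% lower. In male Tg E2 over male WT 5 of 31 were higher, among them Cldn5 (3.21) and Sox17 (1.58), and 1 lower, Esm1 (-1.17), with a median of 0.50. Of all genes 8.82% were higher and 2.64% lower in that comparison.

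Growth factor ligands for these receptors were split. Vegfa read 4.26 on male Tg E2, 4.46 on female Tg, 3.57 on male Tg and 5.07 on male WT. Male Tg over male WT was -1.50 log2 by this probe and -0.76 by another, and male Tg E2 over male Tg 0.69 and 0.17. Vegfb, a ligand of Flt1, read 1.35, 1.95, 1.07 and 2.63, which put male Tg at -1.56 against male WT. In the same comparison Vegfd was at 1.17, Vegfc at 0.75 and Pgf at -0.31. Esm1, an endothelial gene that Vegfa signalling is known to induce, read 4.16, 4.86, 3.46 and 5.33, so male Tg over male WT was -1.87. Beta cell genes, listed because beta cells secrete Vegfa, had a median of -1.62 in male Tg over male WT, with 6 of 10 at least 2-fold lower and 0 higher. The share over all genes was 8.68% lower and 15.6% higher. The 3 beta cell genes above 0 were Ins2 (0.73), Ins1 (0.67) and Iapp (0.29), each with a changed sign in 2 of 9 alternative settings. At the lowest these were -0.28, -0.25 and -0.63. The summed level of the list, 3351 on male Tg and 2645 on male WT, came mostly from these 3 genes. It therefore gives no direction for the list, and saturation of their spots was not examined. Whether the differences in this paragraph are linked was not tested.

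In the angiopoietin system Angpt1, which encodes the ligand that activates Tek, was not well above background on the female Tg and male WT arrays. It was at least 2.80 log2 higher on male Tg than on male WT and at least 1.98 log2 lower on female Tg than on male Tg. Angpt2, which encodes the ligand that opposes it, read -0.49, -0.01, -0.27 and 0.31 in the usual order of arrays, or -0.58 for male Tg over male WT. Angptl4, a lipase inhibitor gene also active in adipocytes, was at 2.55 in male Tg over male WT and at -2.44 in female Tg over male Tg. The receptor gene Nrp1 was at -0.22 and Nrp2 at 1.20, or 2.28 by its other probe, in male Tg over male WT. Of 13 measured ligand, receptor and signalling genes in that comparison, 4 were at least 2-fold higher and 3 lower (median -0.31). The share over all genes was 15.6% higher and 8.68% lower.

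Notch and bone morphogenetic protein genes were mostly higher on male Tg than on male WT, with 8 of 20 at least 2-fold higher and 1 lower (median 0.72 log2). Bmp4 was at 2.39, the vein-identity gene Nr2f2 at 1.71 and Id1, a target of bone morphogenetic protein signalling, at 1.54. In male Tg E2 over male Tg 0 of 20 passed 2-fold in either direction, while for female Tg against male Tg 4 were lower, led by Gja5 (-1.66), which encodes a connexin of arterial endothelium. Genes of endothelial activation had a median of 1.60 in male Tg over male WT, with 6 of 8 higher, among them Procr (3.48), the protein C receptor gene, and Vcam1 (3.14), which encodes a leukocyte adhesion protein. Their median was -0.92 in male Tg E2 over male Tg, where 3 of 8 genes were lower, among them Mmrn1 (-1.96), which platelets also hold, and Selplg (-1.31), a selectin ligand gene of leukocytes. Against male Tg, female Tg had a median of -0.88 with 3 of 9 lower. Sele was not well above background on any array.

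Genes of the cells around vessels had a larger median difference than the 10 endothelial genes in male Tg over male WT. Of 11 pericyte and smooth muscle genes 7 were at least 2-fold higher on male Tg than on male WT and 0 lower (median 1.48). For this comparison the share over all genes was 15.6% higher and 8.68% lower. Contractile genes led, with Cnn1 at 3.03 and Acta2 at 2.45, and Des, a filament gene of muscle and pericytes, was at 2.37. Of the pericyte genes, Abcc9 was at 1.69, Pdgfrb at 1.06 and Rgs5 at -0.19, and Kcnj8 was at least 1.41 log2 higher. In female Tg over male Tg the contractile genes were lower, with Cnn1 at -3.66, Acta2 at -2.68 and Myh11 at -1.92, and Des was at -0.86, Abcc9 at -0.69, Pdgfrb at -0.41 and Rgs5 at 0.35. Of 9 basement membrane genes 2 were higher in male Tg over male WT (median 0.80), Sparc (1.47) and Lamb1 (1.14). Of 4 lymphatic markers measured in male Tg over male WT, 2 were at least 2-fold higher, Pdpn (4.28) and Mmrn1 (1.82), while Prox1 was at -0.48 and Lyve1 at -0.73. Flt4 passed the background call on male WT alone. Pdpn is also expressed by fibroblasts, and it stood beside fibroblast markers with a median of 3.96 and 6 of 6 higher. Summed fibroblast markers stood at 97.3 on male Tg E2, 54.3 on female Tg, 120 on male Tg and 10.1 on male WT, with Pdgfra not well above background on male WT, and acinar markers at 5488, 764, 9182 and 693, all 11 well above background. The part of these cells in the vascular values was not tested.

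**Figure D5:**
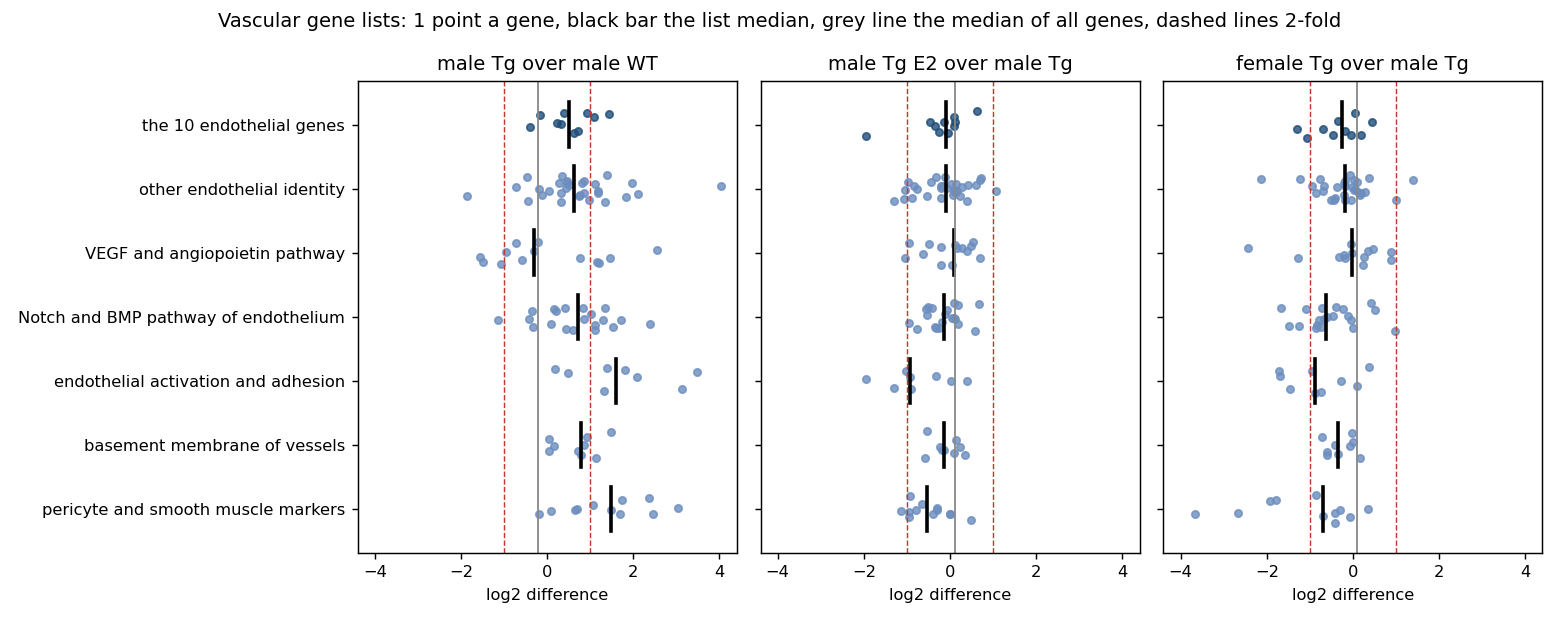
Log2 differences of single genes (points) in 7 vascular lists for 3 comparisons, with the list median as a black bar, the median of all genes as a grey line and 2-fold as dashed lines. The 10 endothelial genes have medians of 0.50, -0.09 and -0.26 from left to right, and the perivascular list 1.48, -0.52 and -0.69.

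The genes nearest to the mean profile of the 10 across the 4 arrays, by Euclidean distance of centred log2 levels, were 2610005L07Rik, Arl6ip6, Psmc3, Tbkbp1 and Zfp282, at distances of 0.02 to 0.04, and none of them is on a vascular list. The mean profile itself spanned 0.27 on male Tg to -0.24 on male WT. Among the 10, Tie1 (0.25), Tek (0.27) and Pecam1 (0.30) lay nearest to it and Vwf farthest (1.22). Of 13880 other genes, 644 lay nearer to it than Tie1, 4301 than Cdh5 and 11661 than Vwf. The mean is therefore not a profile that the 10 genes share.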

How the data were processed

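Islet total RNA was labelled with Cy3 and hybridised to 1 array per group, per the labels. The deposited scanner files hold intensity on a linear scale, background-subtracted and detrended within each array, per the file headers. Feature Extraction is given as 9.5.1.1 by the submitters' processing notes and as 10.7.1.1 by the headers. Spots with an outlier flag were dropped (0 of the endothelial spots), spots of a probe were averaged on the log2 scale, and each array's 75th percentile over non-control probes was subtracted. These percentiles were 299 (male Tg E2), 261 (female Tg), 202 (male Tg) and 365 (male WT) in processed intensity, and 49.9% to 54.8% of spots were well above background. No endothelial spot was saturated. The number of arrays limits the precision.

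Of the 22328 symbols named through a RefSeq table of GRCm38.p6, each gene is its probe with the highest mean level. Named genes are the 10 members, a set given whatever their values, up to 3 genes per list and comparison past 2-fold, and the 5 genes nearest to the members' mean profile. Genes that repeat a list already described are left out, and some others are not reported here. Robo4, S1pr1, Fli1, Nrp2, Sele, F8, Gp6, Cd8a, Pdgfra, Abcc9, Kcnj8, Vegfc, Pgf, Ins1, Ins2 and Iapp, outside this rule, were named after values were seen. The members and lists were chosen with earlier results of these data known. The pipeline was tested on simulated differences. Among list genes with a further measured probe, its sign was opposite in 2 of 26 (male Tg over male WT) and 9 of 27 (female Tg over male Tg), Cd34, Ets1 and Vcam1 among the 9. The series matrix values, deposited as intensity, are quantile normalized across the 4 arrays on a linear scale, as their columns hold the same set of values, and served as an alternative. The software was Python 3.11.15, pandas 2.3.3 and, for normexp, limma 3.58.1.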

Additional observations from a re-analysis of the deposited data

How the results depend on the processing

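No paired analysis was possible because each group has 1 array, and for the same reason no replicate could be left out. All 6 differences of the endothelial genes past 2-fold kept their sign under 9 alternative settings, and 33 of all 40 did. Changing the background filter or keeping flagged spots could hardly move these values. All brightest probes were well above background, and no endothelial spot was flagged. The series matrix values largely repeat quantile normalization. Only the mean of measured probes drew on another probe, so the kept signs say little about probe choice. The count of endothelial genes at least 2-fold lower in female Tg over male Tg was 1 in place of 2 after quantile normalization, with the series matrix values, after normexp, with the mean of all measured probes, and with the second probe of each gene, an alternative chosen after seeing the data. With that second probe Kdr in female Tg over male Tg turned to 0.54. After normexp the counts of genes at least 2-fold higher were 1 in male Tg over male WT and 0 in male Tg E2 over male WT. With the median gene set to 0, the median in male Tg over male WT was 0.70. Over all genes normexp gave 204 higher calls in place of 372 for male Tg E2 against male Tg, 748 in place of 1287 for male Tg E2 against male WT and 223 in place of 499 for female Tg against male Tg, and 254 lower calls in place of 385 for male Tg E2 against male WT and 742 in place of 1171 for male Tg E2 against male Tg. Without the background filter the higher calls in male Tg over male WT were 4369 in place of 2250, and elsewhere 908 in place of 372, 2703 in place of 1287 and 1099 in place of 499, in the same order, with lower calls of 2467 in place of 1171, 952 in place of 385 and 2682 in place of 1218. The lower calls in male Tg over male WT were 752 with the median gene at 0 and 786 with the percentile over probes above background on all arrays, in place of 1249. The causes were not tested. Tek and the second Vwf probe lie near background, which limits their precision. Cldn5, Procr and Pdpn were dim on male WT. Their differences in male Tg over male WT fell to 2.97, 2.53 and 2.85 at the lowest in the alternative settings.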
